A study of Mus musculus with 6 samples.

Results

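The IL-1 and IL-18 receptor cluster is a 600 kb window of mouse chromosome 1, from 40050000 to 40650000 in the mm9 build, that holds the genes Il1r2, Il1r1, Il1rl2, Il1rl1, Il18r1 and Il18rap. Its members are all peaks of 3 T-bet ChIP-seq peak lists that share at least 1 bp with the window: 9 of the 7996 peaks of wild-type (WT) replicate 1, 5 of the 851 peaks of WT replicate 2 and 0 of the 78 peaks of the T-bet knockout (KO) library, or 14 of 8925 peaks in all. The window was chosen by its position with the peaks of these lists already known, so the number of peaks in it, their scores and their recurrence between the WT lists are given as a description, without tests. The cells were induced regulatory T (iTreg) cells of the Balb/c strain, WT or lacking T-bet, grown from sorted naive CD4 T cells of mice aged 4 to 10 weeks. They were stimulated on plates coated with antibodies to CD3 and CD28 at 10 µg/ml each and kept for 7 days with TGF-β1 at 33 ng/ml and IL-2 at 20 ng/ml, conditions that all groups shared. All 3 libraries were precipitated with the same rabbit serum against T-bet after 20 minutes of formaldehyde crosslinking. The labels do not describe the KO allele, and they do not say whether cells of several mice were pooled or whether the WT replicates were separate cultures, so the spread between the replicates may be technical. The iTreg cells were derived in culture, which limits them as a model of regulatory T cells in tissue. The lists hold binding sites and no expression values, so neither the iTreg identity nor the loss of T-bet could be checked from them.

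The 6 genes encode receptors of the IL-1 family. IL-1 family receptors that signal carry a cytoplasmic TIR domain and act through the adaptor MyD88 to activate NF-κB. Il1r1 encodes the signalling receptor for IL-1, and Il1r2 encodes a decoy receptor that binds IL-1 without signalling. Il1rl2 encodes the receptor for the IL-36 cytokines. Il1rl1 encodes ST2, the receptor for IL-33, which is known as a surface protein of regulatory T cells in adipose and other tissues. Il18r1 and Il18rap encode the ligand-binding and accessory chains of the IL-18 receptor, which is known from T helper 1 cells, the lineage that T-bet directs. In the RefSeq annotation of GRCm38.p6, a later mouse build than that of the peaks, the 6 genes follow each other in the order given above, all on the plus strand, between the protein-coding genes Map4k4 and Slc9a4. No annotation of mm9 was used here, so no peak is assigned to a single gene, exon or intron, and positions in the window are given in mm9 only.

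T-bet binds DNA through a T-box, and the letters AGGTGTGA were searched as its consensus on both strands of the promoters of the 6 genes. RefSeq promoter windows of GRCm38.p6, reaching from 250 bases before to 50 bases after each annotated gene start, were present for all 6 genes, 10 windows in all because Il1r1, Il1rl1 and Il18r1 have several. None of the 10 held AGGTGTGA, which 1.28% of all 32851 promoter windows of the table hold. The core GTGTGA, which is part of those letters, was found in 1 of the 10, that of Il1r2, and in 14.5% of all windows. The first 6 letters of the consensus, AGGTGT, were added to the search after the sequences had been seen; they were found in 2 of the 10, those of Il1rl2 and Il1rl1, and in 13.7% of all windows. AGGTGT and GTGTGA overlap by their GTGT. With 10 windows, both counts of 6-letter matches are near the shares over all windows, so the matches do not set the cluster apart. The stretches with a match are shown only to give the letters found. Capitals mark the match, which in Il1r2 and Il1rl2 is the reverse complement of the letters searched:
Il1r2: ccaaggactcgaTCACACgctggaa
Il1rl2: aggaccACACCTcaaatgtttaaa
Il1rl1: aaggaaacagggAGGTGTttagagataggg

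In GRCm38.p6 these stretches lie on the plus strand at chr1:40086118-40086142, chr1:40324339-40324362 and chr1:40429494-40429523, positions that cannot be compared with the mm9 positions of the peaks. The match of Il1r2 starts 37 bases after the first transcribed base, and those of Il1rl2 and Il1rl1 start 244 and 64 bases before it. A match describes the letters and does not show binding, and the sequence under the peaks themselves was not read, because no mm9 genome was used.

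The peaks fell at 10 distinct sites, where only peaks with at least 1 bp in common were counted as a single site. The WT lists shared 4 of them, 5 were present in replicate 1 alone and 1 in replicate 2 alone. In replicate 1, 4 of the 9 peaks met a replicate 2 peak, or 44.4% (exact 95% binomial interval 13.7 to 78.8%), beside 9.50% over the whole list. In replicate 2, 4 of the 5 peaks met a replicate 1 peak, or 80.0% (28.4 to 99.5%), beside 85.4% over the whole list. The intervals cover counting error over peaks only and are wide because there are few peaks. They treat the peaks as independent, although 5 of the 9 replicate 1 peaks lay in a run of 14.2 kb. The window was chosen with these peaks known, so the intervals are no test against the whole-list shares. Each peak carries the score that the peak caller gave it. Its scale is not stated in the sources, no score of the 3 lists was below 70.10, and a score serves here to rank a peak within its own list. Of the 9 replicate 1 peaks, 7 scored above their list median and 4 were in the top 10% of the list. Over the whole list, 47.1% of the top 10% met a replicate 2 peak, so 9.50% is not a share for peaks of like score.

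**Figure D1:**
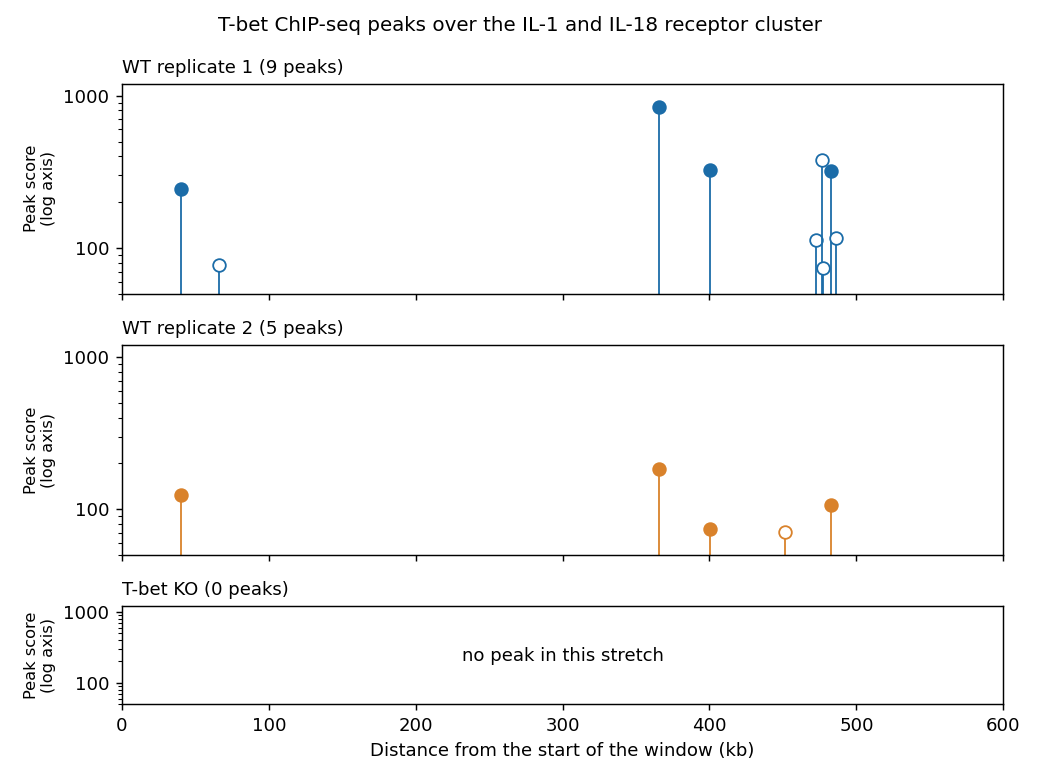
Peaks of the 3 lists over the receptor cluster, drawn by the distance of their centre from the start of the window in kb, with the peak score on a log axis. Filled points are peaks found in both WT lists and open points peaks of that list alone. The sites lie near the start and in the last 250 kb of the window. The highest-scoring peak of the cluster is at the same site in each WT list.

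The strongest site of the cluster lay at 40415596 to 40416032 in replicate 1, with a score of 845, and at 40415626 to 40416070 in replicate 2, with a score of 184. It was the highest-scoring of all 574 replicate 1 peaks on chromosome 1 and ranked 42 of 7996 in that list. In replicate 2 it ranked 10 of the 70 peaks on chromosome 1 and 143 of 851 overall. It was the highest-scoring peak of the cluster in each WT list. The lists differ in length, so ranks from one are not set against ranks from the other.

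The next shared site along the chromosome began 34.1 kb further on. It lay at 40450120 to 40450474 in replicate 1, with a score of 323, and at 40450110 to 40450397 in replicate 2, with a score of 73.9. It ranked 495 of 7996 in replicate 1. In replicate 2 it ranked 786 of 851, close to the end of that list.

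The shared site nearest to the Il18rap end of the window lay at 40532575 to 40532966 in replicate 1, with a score of 323, and at 40532617 to 40532832 in replicate 2, with a score of 107. Here the replicate 2 peak lay wholly inside the replicate 1 peak. The site ranked 499 in replicate 1 and 432 in replicate 2, near the middle of the latter list.

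At the Il1r2 end of the window, the shared site lay at 40090177 to 40090548 in replicate 1, with a score of 245, and at 40090175 to 40090484 in replicate 2, with a score of 123. It ranked 920 in replicate 1, the lowest of the 4 shared sites, and 340 in replicate 2, the second of the cluster there. By score among the 4 shared sites, the strongest came first in each list. The site near the Il18rap end stood behind 2 others in each, and the remaining pair changed places.

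The lists placed the shared peaks close to each other. Their centres differed by 33.0 to 46.0 bp, their starts by 2 to 42 bp and their ends by 38 to 134 bp. The bases in common were 407 at the strongest site, 278 at the following one, 216 at the site near the Il18rap end and 308 at the site near the Il1r2 end. They made up 55.1 to 93.1% of the replicate 1 peaks and 91.5 to 100% of the replicate 2 peaks. In 3 of the 4 sites the replicate 2 peak was the shorter.

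**Figure D2:**
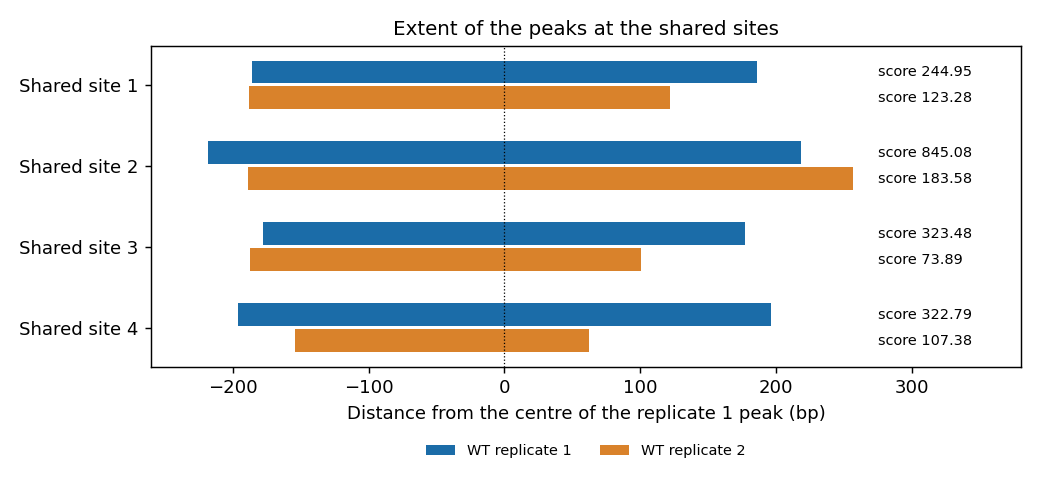
Extent of the replicate 1 and replicate 2 peaks at the 4 shared sites, numbered along the chromosome from the Il1r2 end, as distance in bp from the centre of the replicate 1 peak, with the deposited score beside each bar. The bars overlap over 216 to 407 bp, and site 2 has the highest score of the 4 sites in each list.

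Replicate 1 held 5 further peaks in the cluster that replicate 2 did not. The strongest lay at 40526771 to 40527087 and had a score of 378, the second highest of the cluster and rank 343 of the list, above that of 3 of the 4 shared sites. The nearest replicate 2 peak was 5.53 kb away. Of the 4 replicate 1 peaks of the cluster in the top 10% of their list by score (262.61 or more), 3 met a replicate 2 peak and this was the exception; over the whole list 47.1% of the top 10% did.

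The other 4 had scores of 73.6 to 116, around or below the list median of 108. Only 199 bp beyond the strongest lay a peak at 40527287 to 40527423 with a score of 73.6. The peak at 40522329 to 40522533 had a score of 113 and the one at 40536360 to 40536557 a score of 116, each near the middle of the list. The peak at 40116023 to 40116172 had a score of 77.1 and stood alone, 25.5 kb from the shared site at the Il1r2 end.

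Scores of the shared and unshared replicate 1 peaks of the cluster overlapped, at 245 to 845 and 73.6 to 378. Their widths did not: the 4 shared peaks were 355 to 437 bp wide and the 5 others 137 to 317 bp. Over the whole replicate 1 list, the widths overlapped. Peaks that met a replicate 2 peak were 85 to 893 bp wide, with a median of 311 bp. The rest were 59 to 38439 bp wide, with a median of 169 bp. The peak found in replicate 2 alone lay at 40501524 to 40501906, between the shared sites at 40450120 and 40532575 and 20.4 kb from the nearest replicate 1 peak. Its score of 70.5 was the lowest of all 70 replicate 2 peaks on chromosome 1, and only 9 of the 851 peaks of the list, itself included, scored that low. It was 383 bp wide, the second widest of the cluster in its list.

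**Figure D3:**
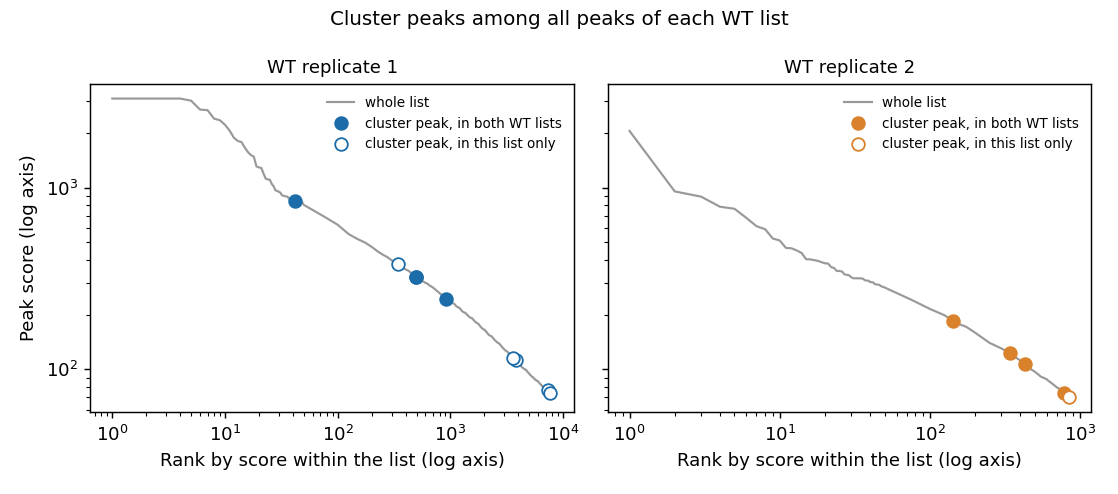
Score against rank for each WT list, both on log axes, with the whole list as a line and the peaks of the receptor cluster as points (filled where the other WT list has the site). In replicate 1 the shared peaks stand at ranks 42 to 920 and 4 of the unshared ones far lower; in replicate 2 the unshared peak stands at the end of the list.

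The sites were spread unevenly over the window. Joined within 10 kb, the 9 replicate 1 peaks formed 5 groups: 4 single peaks and 1 run of 5 peaks that spanned 14.2 kb near the Il18rap end, from 40522329 to 40536557. That run held 1 of the shared sites and 4 of the 5 peaks found in replicate 1 alone. Of the 8 gaps between neighbouring replicate 1 peaks of the cluster, 4 were under 10 kb, beside 24.8% of all gaps in the list. The median gap was 15.3 kb in the cluster and 60.2 kb over the list. The widest stretch between peaks measured 299 kb, from the weak peak at 40116172 to the strongest site at 40415596, and no list had a peak in it. The shared sites lay 325.5, 34.5 and 82.5 kb apart from centre to centre and together spanned 442.4 kb.

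The nearest WT peaks outside the window are given next, and whether their distances are unusual for the lists was not tested. In replicate 1 they lay at 39899164 to 39899301, with a score of 75.8 and 191 kb before the first cluster peak, and at 40904441 to 40904673, with a score of 166 and 368 kb after the last. In replicate 2 the nearest peaks lay at 39615800 to 39616203, with a score of 282 and 474 kb away, and at 45008054 to 45008162, with a score of 158 and 4475 kb away. The outermost peaks inside the window were the shared site at 40090177 (replicate 1 score 245) and, at the other end, the replicate 1 peak that ends at 40536557 (score 116).

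The window held 15.0 replicate 1 peaks per Mb, beside 3.03 for the whole list, and 8.33 replicate 2 peaks per Mb, beside 0.322. For the whole-list values, all peaks of a list, wherever placed, were divided by the summed length of the autosomes and X. To place these numbers, the chromosomes were divided into 4388 adjoining stretches of 600 kb. At least 9 replicate 1 peaks were found in 193 stretches, or 4.40%, and at least 5 replicate 2 peaks in 19, or 0.433%. Stretches that reached both numbers were 17, or 0.387%, and 37, or 0.843%, held at least 4 shared sites. The median stretch had no peak in either WT list, and the richest had 28 in replicate 1 and 9 in replicate 2. The edges of the window were drawn around known peaks whereas those of the stretches were not, which favours the window, so these shares only describe where it stands.

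**Figure D4:**
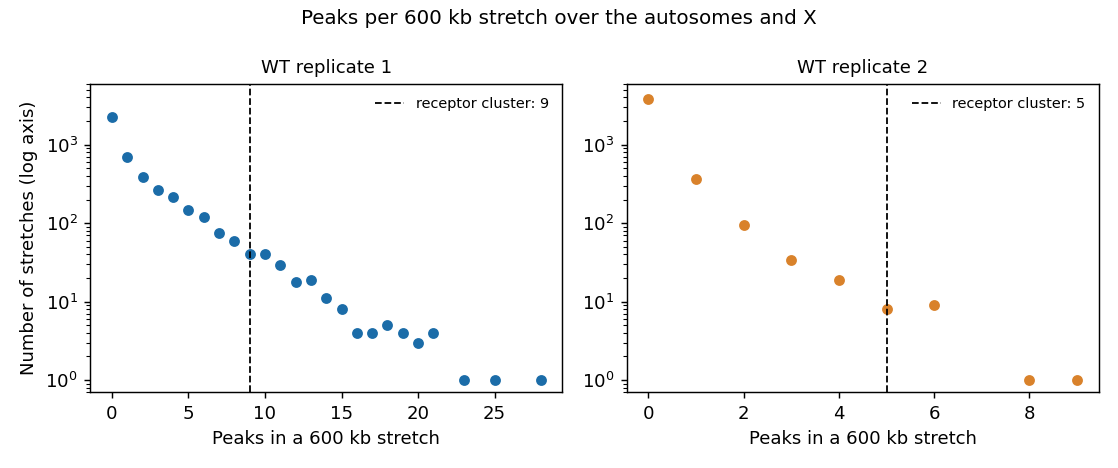
Number of 600 kb stretches of the autosomes and X, on a log axis, by the number of peaks each holds, for the WT lists. The dashed lines mark the receptor cluster, with 9 replicate 1 and 5 replicate 2 peaks, beyond the bulk of the stretches in each list.

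The KO library, precipitated with the same serum, had no peak in the cluster. Its nearest peaks on chromosome 1 lay 27.4 Mb before the window, at 12634753 to 12635014 with a score of 165, and 4.36 Mb after it, at 45008055 to 45008152 with a score of 246. The second of these overlaps the nearest replicate 2 peak beyond the window. No cluster peak was met by a KO peak, beside 0.550% of all replicate 1 peaks and 5.41% of all replicate 2 peaks. A KO peak was present in only 56 of the 4388 stretches, or 1.28%, with a mean of 0.0178 peaks per stretch, so an empty KO window is what nearly every stretch of the genome shows. The depth of the libraries is unknown, there is 1 KO library, and a difference in T-bet signal between WT and KO cells at these sites was not tested.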

How the data were processed

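T-bet ChIP-seq was represented by 3 peak lists, for 2 WT libraries and 1 KO library; the 3 input samples were not analysed here. Samples were grouped by their titles. CASAVA, Bowtie2 and MACS 1.4 are named with the build mm9 in the submitters' processing notes; their settings, any read filter and the controls used in peak calling were not given in the sources. Each list was called on a single library. The deposited score of each peak has no stated scale, and depth and read length per library are unknown (the labels give 35 or 50 bp), so scores and ranks are read within a list only. In the names under which the lists were deposited, replicate 2 and the KO library carry a common leading number and replicate 1 another, whose meaning is not given.

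Positions were written in mm9, counted from 1. Peaks with at least 1 bp in common were counted as shared. Chromosome lengths (19 autosomes and X) came from GenomeInfoDb 1.38.1 (R 4.3.3); peaks were assigned to 600 kb stretches by their centre, and incomplete stretches at chromosome ends were left out. All peaks of the window were to be named, with the nearest peak on either side in each list. The planned assignment of peaks to genes, the count over other IL-1 family genes and the motif search under the peaks need mm9 references and were not run. Members, window and lists were chosen with earlier results of these data known. Overlap and stretch counts were checked on simulated peaks. Scripts used Python 3.11.15, scipy 1.17.1, numpy 2.4.6 and matplotlib 3.10.9.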

Additional observations from a re-analysis of the deposited data

How the results depend on the processing

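With replicate 1 limited to its 851 highest peaks, 4 of its peaks remained in the window, 3 of them shared sites and the other the unshared peak at 40526771; the site at the Il1r2 end was lost. With scores of at least 100, replicate 2 kept 3 peaks, and 100% of these met a replicate 1 peak. Replicate 1 peaks met by replicate 2 ranged from 42.9% (scores of at least 100) to 75.0% (replicate 1 limited as above), beside 44.4%. Replicate 2 peaks met by replicate 1 ranged from 60.0 to 100%, beside 80.0%. With so few peaks, each share moves far with a single peak. Whole-list shares under these score and length limits were not computed, so the changed values have no matching background. Over the whole list, 47.1% of the top 10% of replicate 1 peaks met a replicate 2 peak, beside 9.50% of all. The 4 shared sites were met under a reciprocal overlap of 50%, centres within 250 bp and a gap of up to 1 kb alike, with no site added. Stretches as rich as the window in both WT lists numbered 15 to 23 under other tilings, scores and merging; left to 1 list, they numbered 19 without replicate 1 and 193 without replicate 2. Counting distinct sites, a choice made after seeing the data, gave 5 without replicate 1 and 9 without replicate 2. That count also depends on keeping close peaks apart: with peaks within 500 bp merged, replicate 1 had 8 peaks in the window. The merged pair lay 199 bp apart. The alternatives for the KO list could not change its count of 0, since the nearest KO peak lay 4.36 Mb from the window. No paired analysis was possible because only WT inputs, for which no file was used, share replicate numbers with the WT libraries, and there is 1 KO library. Since the depth of the libraries is unknown, a missing peak does not show an unbound site.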
